A study of Mus musculus with 15 samples.

Results

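The transcripts of mouse spermatogonial stem cell cultures that had been kept in growth factors throughout are described here by their abundance, from the brightest to those no brighter than background. The cultures were enriched for spermatogonial stem cells, came from C57BL/6 male mice aged 6 days and grew in a serum-free defined medium with GDNF, GFRalpha1 and bFGF. They make up 3 of the 15 arrays of the series, and were chosen by their label alone, as the only group in which GDNF and GFRalpha1 were never taken away. The other 12 arrays, of cultures deprived of both factors for 18 h with or without their return, are not analysed here. Nothing in the labels says whether the 3 replicates came from separate cultures, and the errors given may therefore be technical alone. Nor do they give the share of stem cells or the other cells present.

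Spermatogonial stem cells are the germline stem cells of the testis, which renew themselves and give rise to spermatozoa throughout life. GDNF (glial cell line-derived neurotrophic factor), made in the testis by Sertoli cells and other somatic cells, binds the co-receptor GFRA1 on the stem cell, and the pair activates the receptor tyrosine kinase RET. In culture the cells need GDNF, and basic FGF (bFGF, also called FGF2) acts beside it through FGF receptors. A dividing germ cell of this kind carries the machinery of any growing cell together with germline RNA-binding proteins and a small set of stem cell transcription factors.

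Each array gave a MAS5 signal, a brightness in arbitrary units, for 45101 probe sets. After probe sets with 1 gene symbol were kept, 18193 genes were ranked, each by its brightest probe set. Median signal over all probe sets was 48.2, 46.0 and 45.7 on replicates 1, 2 and 3. Over the non-control probe sets Spearman's rho between arrays lay between 0.934 and 0.944, as a description across probe sets that are no independent replicates. The 3' to 5' signal ratio of the beta-actin control was 1.15, 1.34 and 1.23, and that of the Gapdh control 0.71, 0.76 and 0.88.

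Brightness was judged against a background line. Olfactory, vomeronasal, taste and trace amine receptor genes, which act mainly in sensory neurons, had 84 probe sets, and the line of each array was the signal that 95% of these stayed under. It lay at 70.9, 68.9 and 59.5 on replicates 1, 2 and 3. A gene was called above background where its log2 signal exceeded the line beyond the spread of the 3 arrays, in a one-sided limma test at an adjusted p under 0.05. By this measure 8900 genes, or 48.9% of those tested, were above background. Of the 76 sensory receptor genes themselves, 2 were called, Vmn1r148 and Vmn1r44, at 118 ± 13.0 and 103 ± 14.3 (mean ± SD, n = 3 arrays, as for every ± here). The line was set from these same genes, so a low count was built in and is no check of the line.

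Called genes were split by mean signal. The 890 brightest, from a signal of 1254.5 upwards, form the high band and make up 4.89% of all genes ranked. The next 3560 (19.6%), down to 306.8, form the moderate band, and the other 4450 (24.5%) the low band. The 9293 genes that were not called had a median signal of 27.0 and none lay over 134.3. The curve was steep at its top. The 10 brightest genes held 2.3% of the summed signal of all genes, the 100 brightest 13.5% and the 1000 brightest 45.7%.

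**Figure D1:**
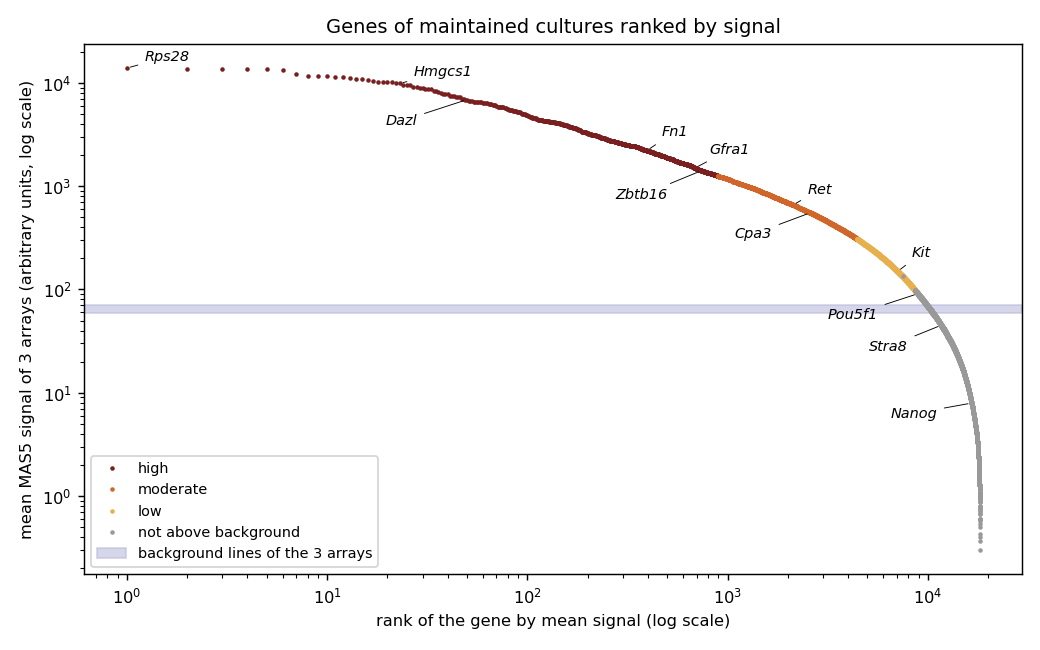
Mean MAS5 signal of 3 arrays (vertical axis, arbitrary units, log scale) for each gene against its rank (horizontal axis, log scale), coloured by band, with the range of the 3 background lines as a horizontal stripe. Dazl lies at rank 50 and Gfra1 at rank 688, both in the high band, while Nanog at 7.93 lies far under the stripe.

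Ranks are rough, since probe sets differ in how strongly they bind their target and MAS5 signal is not calibrated between them. For the 5831 called genes with over 1 probe set, the brightest was 2.34-fold above the next and 6.83-fold above the dimmest, in the median. All probe sets were called for only 28.9% of these genes. A dim value is likewise weak evidence of a missing transcript. The ribosomal protein gene Rps16, needed in every cell, was at 2.0, 1.3 and 1.9 on its only probe set, and Cox7c and Ndufb4, subunits of the respiratory chain, were at 54.8 ± 15.6 and 34.6 ± 9.75. The order was steadier between arrays than between probe sets. Of the 100 brightest genes, 81 were in the top 100 of every array and 99 in its top 200. Of the 1000 brightest, 819 were in the top 1000 of every array. The widest spread of rank over the arrays was 172 places among the 100 brightest genes.

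The labelled sex was met by Y-linked genes, of which 6 of 9 were called (66.7%, against 48.9% of all genes). Eif2s3y, a translation initiation factor gene of the Y chromosome, was at 317.5, 356.7 and 363.1, with its second probe set at 12.9. Uty was at 123.2, 137.0 and 153.5, with 2 of its 4 probe sets called. Kdm5d lay just above the line at 94.5 ± 6.37 (limma adjusted p = 0.0198), with 1 of its 3 probe sets called. Zfy2 (97.4 ± 39.0, limma adjusted p = 0.0563), Tspy-ps (53.0 ± 9.3) and Sry (10.6 ± 1.47) were not above background. Xist, the RNA that coats an inactive X chromosome in females, was not above background at 73.4 ± 1.61 on its brightest probe set (limma adjusted p = 0.47). Uba1y, a Y-linked ubiquitin-activating enzyme gene known to be transcribed in spermatogonia, reached 2393, 2664 and 2753. Its X-linked copy Uba1 is similar in sequence, and how far the probes tell the copies apart was not tested.

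The brightest genes encoded the machinery of protein synthesis. Of the 100 brightest, 31 were cytosolic ribosomal proteins, 9 were translation factors, 10 were subunits of oxidative phosphorylation, 6 were chaperones and 6 were RNA processing proteins. The first place by mean among ranked genes went to Rps28, a small-subunit protein, at 10437, 17207 and 14019. Rps2 (13704 ± 2611), the elongation factor gene Eef1a1 (13701 ± 1650), the actin gene Actb (13615 ± 2590), Rps18 (13527 ± 2968) and Tpt1, which encodes a tumour protein linked to growth (13336 ± 2559), followed so closely that their means differed by less than any of their SDs. Their order changed with the array, with Eef1a1 first on replicate 1, Rps28 on replicate 2 and Actb on replicate 3. The highest signal over all probe sets, controls included, was 12848.4, 19096.4 and 18280.8 on these arrays, above every ranked gene. Control probe sets and those with several symbols or none were not ranked, so brighter transcripts may be missing from the ranking.

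Behind them came Rpl41, Rps29, Rpl7a, Rpl13a, Rpsa, Rps7, Rps3a1, Rpl4, Rpl38, Rps10, Rps3 and Rps24, all ribosomal proteins, with means between 12297 and 10169. Rplp0, Rpl6 and Rplp2 followed between 10142 and 9552, which made 18 ribosomal proteins among the 25 brightest genes. The other 7 were Eef1a1, Actb, Tpt1, the nucleosome-binding protein gene Hmgn1 (10158 ± 2020, at place 19 on each array), the thymosin gene Tmsb10 (10131 ± 2105, resting on probe sets marked as shared or cross-hybridising, as did Rpl41), the chaperonin subunit gene Cct2 (9898 ± 1298) and Hmgcs1. Hmgcs1, an early enzyme of cholesterol synthesis, was at 8162, 11538 and 9848 and stood at rank 23. The brightest probe set was also marked as cross-hybridising for Rps2, Rps18, Rps29, Rpl13a, Rpl38, Rps24 and Cct2. Rps2 and Rpl38 had no other probe set, so they drop out when such probe sets are left out.

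Of the 44 cytosolic ribosomal protein genes that could be ranked, 43 were called (97.7%, against 48.9% of all genes). The median signal of the 44 was 8125, against 86.6 over all genes. The high band, with 4.89% of all genes, held 37 of the 44. The 6 in the low band were Rpl39, Rps25, Rps27, Rps6, Rpl14 and Rpl12, from 284 down to 151. None of the 44 lay in the moderate band. These genes have many near-identical processed copies in the genome, so part of a signal may come from, or be lost to, such copies. Among paralogs, Rpl22l1 was at 2627, 7132 and 3953, Rps27l at 4020 ± 1522, Rps4l at 3684 ± 401 and Rpl39l, known from testis, at 1639, 3865 and 2167. Rpl7l1 was in the moderate band at 861 ± 53.6. Rpl3l, the form of striated muscle, was not above background at 19.9 ± 7.77. Rps4l and Rps4x (3369 ± 775) are close copies and their probes may not tell them apart.

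Ribosomal protein mRNAs of mammals are known to start with a C in a run of pyrimidines, the 5′ terminal oligopyrimidine tract through which growth signals set their translation. RefSeq promoters (build GRCm38.p6) were matched for 14452 of the genes, 39 of them ribosomal protein genes, and are shown for some of the brightest ribosomal genes and, beside them, for a germline and a receptor gene. Each window runs from 40 bases before the annotated start to 15 bases from it on, 5′ to 3′ on the gene's strand. Capitals mark a C followed by at least 4 pyrimidines, or the letters CTTCCGG, which hold the core bound by ETS factors. For the pyrimidines only bases within 10 bases either side of the start were counted. The last cttcc of Rps7 runs past that limit and stays in lower case.
Rps18, chr17:33955651-33955705, minus strand: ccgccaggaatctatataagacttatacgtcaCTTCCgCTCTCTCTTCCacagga
Rpl7a, chr2:26910767-26910821, plus strand: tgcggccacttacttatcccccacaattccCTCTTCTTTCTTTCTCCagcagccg
Rps7, chr12:28635939-28635993, minus strand: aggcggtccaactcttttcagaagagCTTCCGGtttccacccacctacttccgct
Dazl, chr17:50293606-50293660, minus strand: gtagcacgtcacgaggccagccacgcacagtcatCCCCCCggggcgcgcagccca
Gfra1, chr19:58455384-58455438, minus strand: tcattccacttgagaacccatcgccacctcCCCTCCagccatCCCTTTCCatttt

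The annotated first base was a C followed by at least 4 pyrimidines in 9 of the 39 ribosomal protein promoters (23.1%), against 2.37% of all 14452, as in Rps18. The same was so in 2 of the 18 promoters of germ cell RNA-binding genes (11.1%) and 2 of the 21 of undifferentiated spermatogonia genes (9.52%). Such a run of at least 5 bases lay within 10 bases either side of the start in 53.8% of ribosomal protein promoters against 26.7% of all. CTTCCGG, or CCGGAAG on the other strand, stood in the 250 bases before the start in 41.0% of ribosomal protein promoters against 10.6% of all. It was found in 21.0% of promoters of the high band and 5.16% of those not above background. It stood in none of the 18 promoters of germ cell RNA-binding genes and in none of the 21 promoters of undifferentiated spermatogonia genes. TATAAA in the last 50 bases before the start was rare, in 1.91% of promoters of the high band, 4.9% of those not above background and none of the ribosomal ones. CCAAT, or ATTGG, in the 250 bases before the start was in 28.2% of ribosomal protein promoters, 41.1% of those of the high band and 35.7% of all. These are counts of letters, not of sites in use, and 1 promoter per gene was read.

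All 29 measured translation factors were above background, against 48.9% of all genes. Of the 29, 25 were in the high band, against 4.89% of all genes, and the list's median was 2709. After Eef1a1 and Tpt1 the brightest were Pabpc1, which binds the poly(A) tail (8840 ± 1299), Eif5a, which eases peptide bond formation (8801 ± 1351), and the RNA helicase gene Eif4a1 (7714 ± 656). Of 26 ribosome biogenesis genes all were called, with 7 in the high band and a median of 960. The nucleolar proteins Npm1 (7516 ± 1330), Ncl (4142 ± 824) and Fbl (3237 ± 618) led, and Polr1a, the large subunit of RNA polymerase I, was the dimmest at 177 ± 19.0.

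Energy metabolism was represented by both respiration and glycolysis. Of 76 oxidative phosphorylation genes 73 were called (96.1%, against 48.9% of all genes). The high band, with 4.89% of all genes, held 51 of the 76, and the list's median was 1733. Cox6a1 was at 6844, 9991 and 8215, Cox7a2 at 4982, 10867 and 7351, and the ATP synthase gene Atp5b at 5927, 5425 and 6334. Of 20 listed glycolysis and lactate genes 17 could be ranked, and Gapdh and Eno1 were not among these. All 17 were called, with 7 in the high band and a median of 902. The brightest of the 17 were Pgk1 (5838 ± 876), Aldoa (4081 ± 907), Pkm (3528 ± 662) and Pgam1 (3376 ± 332). Ldha, which makes lactate, was at 2262 ± 91.7 and Ldhb at 504 ± 14.5. Among glucose transporters Slc2a3 was at 1917, 1734 and 1991 and Slc2a1 at 821 ± 134. Of the hexokinases, Hk2 was at 994 ± 66.8 and Hk1 at 346 ± 20.5.

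Lipid synthesis stood high. All 18 measured genes of cholesterol synthesis and its control were called, 9 of them in the high band, with a median of 1270. Over all genes 48.9% were called and 4.89% were in the high band. After Hmgcs1 came Idi1 (3911 ± 590) and Fdps (3696 ± 975), enzymes of the isoprenoid steps, Msmo1 (2375 ± 167), and Insig1, which holds back the regulator of the pathway (2297 ± 935). All 12 fatty acid genes were called too (median 966). The desaturase gene Scd2 was at 5302 ± 404 and Scd1 at 692 ± 22.1, while Acly, which supplies acetyl-CoA, was at 3059 ± 474 and Fasn, the fatty acid synthase gene, at 1254 ± 230. In pentose phosphate and nucleotide synthesis 22 of 23 genes were called (median 818). Paics, of purine synthesis, was at 2469 ± 293, Ctps at 2180 ± 61.6 and Rrm2, a ribonucleotide reductase subunit, at 2176 ± 808. Tyms, for thymidylate, was not above background at 51.0 ± 9.90, although dividing cells need it, on any of its 4 probe sets.

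Genes of division were bright. Of 26 DNA replication genes 25 were called (96.2%, against 48.9% of all genes), with a median of 1253. The high band, with 4.89% of all genes, held 13 of the 26. The polymerase clamp gene Pcna was at 5692, 7206 and 6765 and the helicase subunit gene Mcm7 at 5476, 6628 and 6515. All 21 mitosis genes were called (median 984), led by Cdc20 (3327 ± 420), Top2a (2602 ± 199) and Ccna2 (2024 ± 251). Among cyclins, CDKs and their inhibitors 19 of 22 were called (86.4%, against 48.9% of all genes). Ccnd2, a D cyclin of spermatogonia, was at 4335, 4730 and 4953 with all of its 7 probe sets called, Ccnd1 at 1361 ± 188 and Ccnd3 at 688 ± 85.4. The CDK inhibitor gene Cdkn1a was at 960.4 ± 99.1. Cdkn2a (74.2 ± 9.93) and Cdkn1b (41.7 ± 2.96) were not above background.

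Many genes of chaperones, the proteasome and nuclear proteins also lay in the high band. All 30 chaperone genes (median 2940) were called, against 48.9% of all genes, and 23 were in the high band, against 4.89% of all genes. The cytosolic heat shock genes Hspa8 (9506 ± 1207) and Hsp90aa1 (9063 ± 1156) followed Cct2. Of the stress-inducible pair, Hspa1b was at 972 ± 124 and Hspa1a at 111 ± 5.20, and their near-identical sequences may share signal. Of 39 proteasome genes 37 were called (median 1499). The immunoproteasome subunit gene Psmb8 was not above background at 25.6 ± 6.32, while Psmb9 (186 ± 26.3) and Psmb10 (313 ± 42.6) were in the low and moderate bands. All 30 RNA processing genes were called, 25 in the high band, with Hnrnpab (6909 ± 1012) and Snrpe (6436 ± 2405) the brightest. In the chromatin list 16 of 18 were called, with Rbbp4 (6285 ± 1616) and Set (5495 ± 528) after Hmgn1. All 21 antioxidant and iron genes were called, led by the ferritin gene Fth1 (6618 ± 1130), Mif (6477 ± 1397) and Sod1 (5790 ± 3355). Mif was called on 1 of its 3 probe sets, with the next at 31.3.

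**Figure D2:**
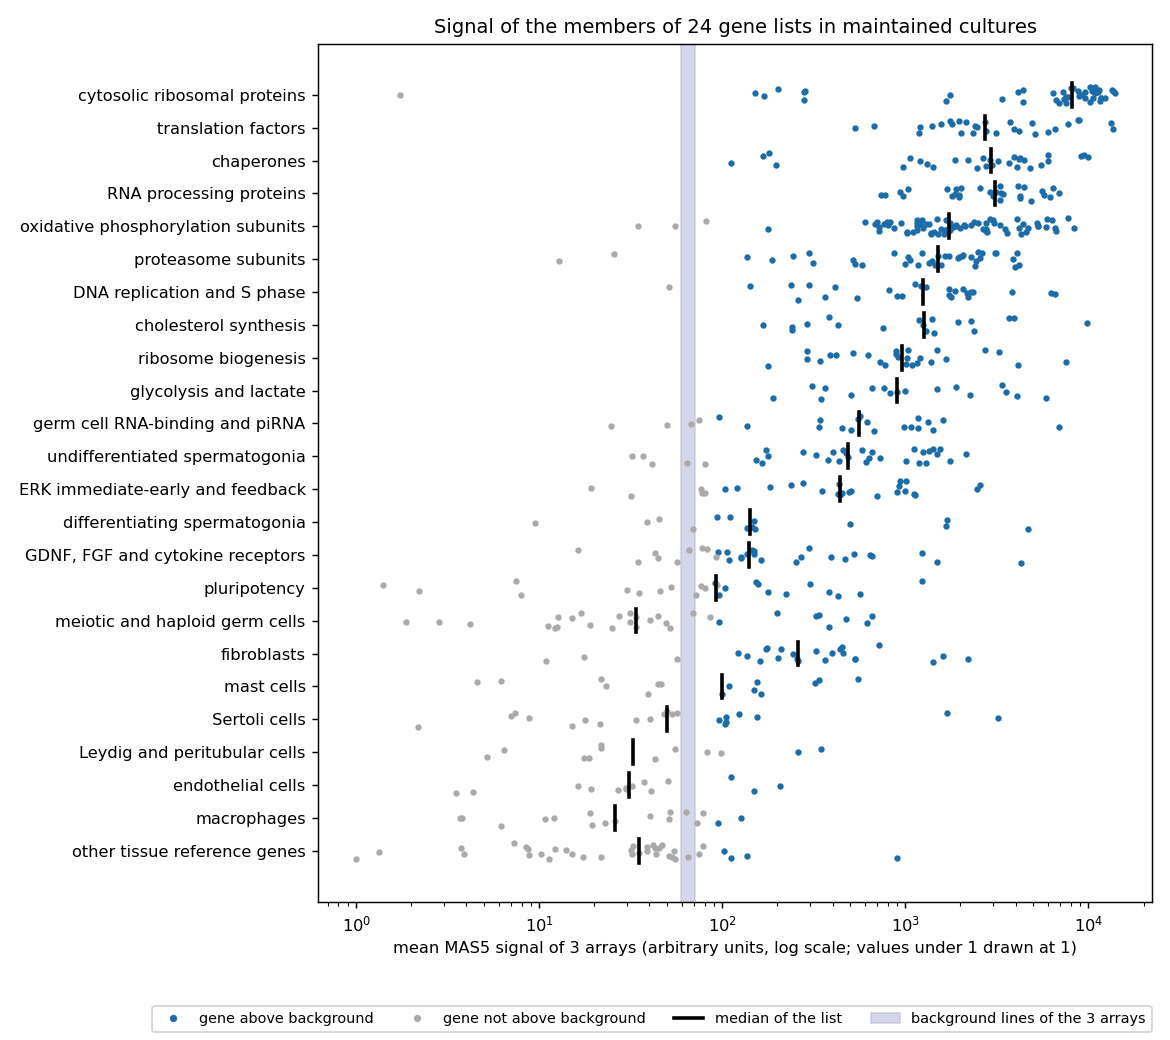
Mean MAS5 signal of 3 arrays (horizontal axis, arbitrary units, log scale) for each member of 24 gene lists (rows), blue where above background and grey where not, with the list's median as a black bar and the range of the background lines as a vertical stripe. The median falls from 8125 for ribosomal proteins to 559 for germ cell RNA-binding genes and 25.8 for macrophage genes.

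Germ cell genes reached the high band. Dazl, a germline RNA-binding protein gene, was the brightest germ cell gene and stood at rank 50, at 5587, 7398 and 7640, with its second probe set at 6444. Of 22 germ cell RNA-binding and piRNA genes 18 were called (81.8%, against 48.9% of all genes), 4 of them in the high band, with a median of 559. Mael, of the piRNA pathway, was at 1504, 1721 and 1579, Tex19.1 at 1620, 1329 and 1295, and Gtsf1 at 911, 1837 and 1248. Ddx4, the RNA helicase that marks germ cells, was at 1314, 1118 and 1093, with Tex14 (1170 ± 122), a gene of the intercellular bridges that join germ cells, and Dnd1 (1074 ± 144) at like levels. The PIWI gene Piwil2 was at 619 ± 88.7. Piwil4, the PIWI gene of fetal prospermatogonia, lay just above the line at 95.7 ± 13.7 (limma adjusted p = 0.0214). Tdrd1, Henmt1, Ybx2 and Tdrd9 were not above background, with means between 75.0 and 24.8.

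Of 13 X-linked and antigen genes of germ cells 9 were called (69.2%, against 48.9% of all genes). Taf7l, a germ cell form of a general transcription factor subunit, was at 1437, 1331 and 1502, and Uchl1, a deubiquitinase and marker of spermatogonia, at 1350 ± 90.2. Tktl1 (828, 848 and 898), Nxf2 (668 ± 44.6) and Rhox13 (626 ± 297) followed, and Magea4, Tex13a, Dppa3 and Fthl17a were not called. On the X chromosome as a whole 46.5% of 617 genes were called, against 49.4% of 17403 autosomal genes, and 3.89% against 4.96% were in the high band.

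Genes of undifferentiated spermatogonia lay in every band. Of 33 measured, 28 were called (84.8%, against 48.9% of all genes), with 7 in the high band, 16 in the moderate and 5 in the low, and a median of 484. The brightest was Elavl2, an RNA-binding protein gene, at 2154 ± 141, followed by the surface protein gene Epcam (1829, 1712 and 1736) and Taf4b (1538 ± 244). Gfra1, the GDNF co-receptor, was at 1436, 1425 and 1628 and stood at rank 688, with its other probe sets at 579 and 448. Zbtb16, the zinc finger repressor PLZF that maintains stem cells, was at 1378, 1443 and 1420. The integrin gene Itga6 was at 1344 ± 173, and Id4, which blocks helix-loop-helix factors and marks stem cells, stood at 1119, 1527 and 1258. These 3 arrays gave Gfra1, Zbtb16, Itga6 and Id4 in overlapping ranges, so their order is not settled even apart from the probes.

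In the moderate band lay transcription factors of self-renewal, of which Etv5, Bcl6b, Lhx1 and Pou3f1 are known to answer GDNF. Etv5, an ETS factor, was at 1486, 747 and 1090. Sall4, a zinc finger factor of germ cells, was at 923, 1239 and 873. Bcl6b, a repressor used in self-renewal, was at 728, 465 and 696, and the forkhead gene Foxo1 at 581 ± 114. The LIM homeobox gene Lhx1 was at 403, 547 and 503, the POU gene Pou3f1 at 376, 447 and 314, and the T-box gene Eomes at 347, 287 and 344. Bcl6b, Etv5 and Foxo1 were lowest on replicate 2, whereas Lhx1 and Pou3f1 were highest there. Thy1 (174 ± 31.1) and Lin28a (177 ± 34.9), both used as markers of undifferentiated cells, were in the low band. Neurog3, a factor of progenitors, was at 83.3, 88.5 and 70.7 and not above background (limma adjusted p = 0.187), nor was Pax7 (64.2 ± 23.6), Cdh1, the E-cadherin gene (39.2, 39.4 and 32.1), Upp1 (41.3 ± 5.97) or Plvap (32.0 ± 14.7).

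**Figure D3:**
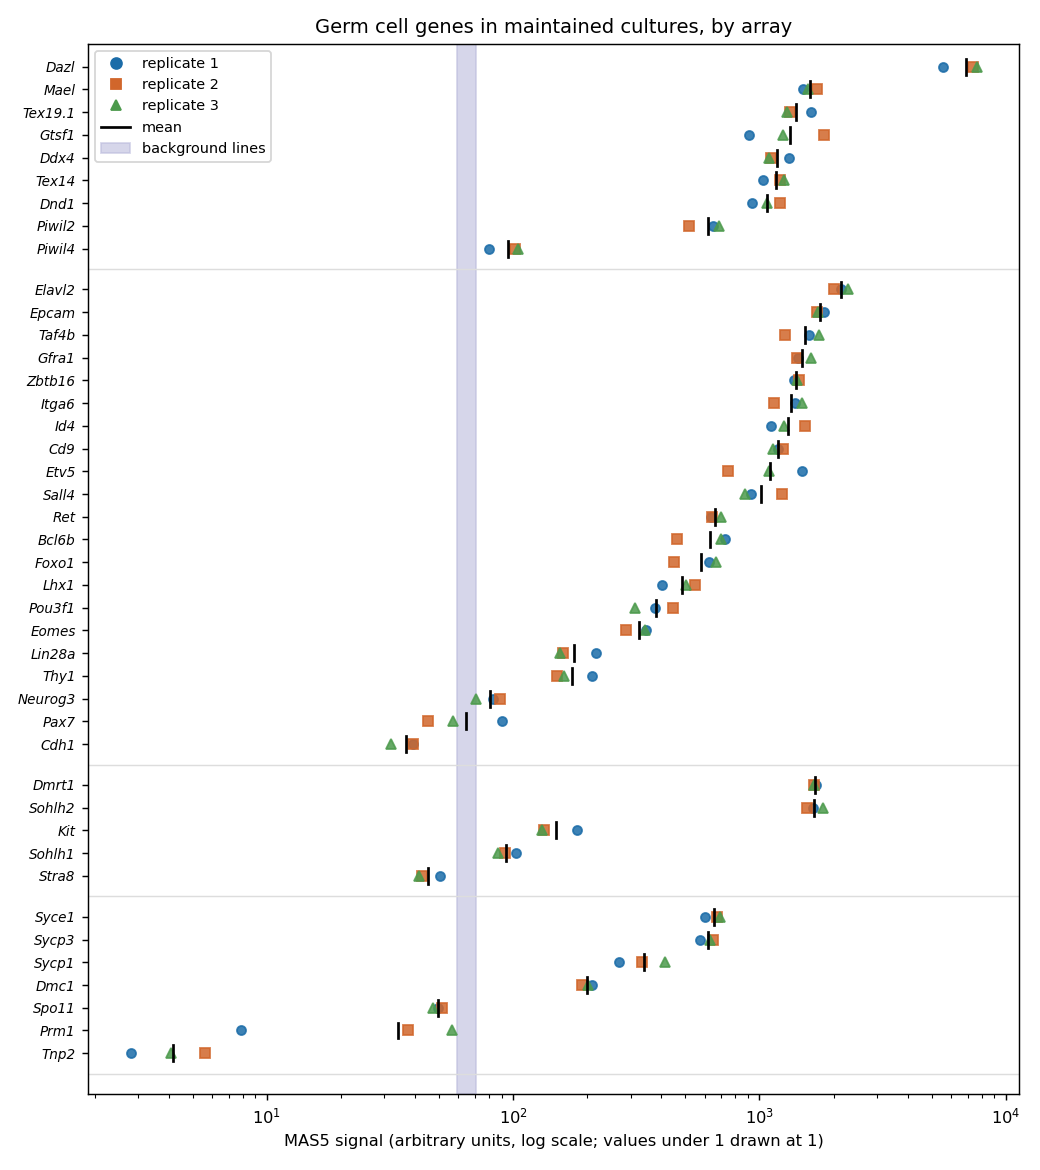
MAS5 signal (horizontal axis, arbitrary units, log scale) of each gene (rows) on replicates 1, 2 and 3, shown by 3 symbols, with the mean as a black bar and the background lines as a stripe. From top to bottom the blocks are germline RNA-binding genes, undifferentiated, differentiating and meiotic or haploid genes. Dazl stands alone near 6875, and the haploid gene Tnp2 lies at 4.17.

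Markers of differentiation split. Dmrt1, which holds back meiosis (1680.8 ± 18.4), and Sohlh2, a helix-loop-helix factor of spermatogonia (1657, 1554 and 1812), were in the high band, as was Ccnd2. Sohlh1, the partner of Sohlh2, lay just above the line at 102.5, 92.8 and 86.7 (limma adjusted p = 0.0211). Kit, the receptor gained by differentiating spermatogonia, was in the low band at 182.3, 134.1 and 131.5. Stra8, the retinoic acid target at the entry to meiosis, was not above background at 50.6, 42.9 and 41.5, and neither was Lmo1, Prdm9 or Stra6. In all, 10 of 14 genes of this list were called (71.4%, against 48.9% of all genes). With a line from genes of other tissues 4 of the 14 were called, a smaller share than the 6376 of all 18193 genes.

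Of 30 meiotic and haploid genes 8 were called, 26.7% against 48.9% of all genes. Most called members encode parts of the synaptonemal complex, which pairs chromosomes in meiosis, or act in cohesion and recombination. Syce1 was at 604, 671 and 693, Sycp3 at 575, 650 and 630, and the cohesin gene Smc1b at 474 ± 22.4. Tex12 (381 ± 105), Sycp1 (339 ± 71.5), Sycp2 (323 ± 43.7), the recombinase gene Dmc1 (200 ± 9.38) and Acr, the acrosin gene of haploid cells (96.3 ± 11.8), were lower. Spo11, which cuts DNA to start recombination, was not above background at 49.5 ± 2.10. Among other haploid genes the transition protein gene Tnp2 was at 4.17 ± 1.40, Pgk2 at 2.83 ± 1.25 and the protamine gene Prm1 at 7.9, 37.3 and 56.7.

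Of 24 pluripotency genes 12 were called, a share near the 48.9% of all genes, and none was in the high band. With a background line from genes of other tissues 6 were called, a smaller share than the 6376 of all 18193 genes. Tcl1, an AKT co-activator, was at 1216, 1156 and 1319, Mycn at 567 ± 51.5 and Dppa4 at 427 ± 41.3. Sox2 was at 223.6, 234.5 and 214.2. Pou5f1, the factor OCT4, lay just above the line at 92.1, 85.7 and 94.7 (limma adjusted p = 0.0383). Nanog was at 1.9, 12.5 and 9.4, and Nr0b1 (2.20 ± 0.10) and Tdgf1 (1.40 ± 0.964) were likewise at background, on 1 probe set each. Myc was not above background at 80.9 ± 19.3 (limma adjusted p = 0.223).

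Among DNA methylation genes, 7 of 11 were called (63.6%, against 48.9% of all genes). The maintenance methyltransferase gene Dnmt1 was at 2459, 2045 and 2408 and its partner Uhrf1 at 2377, 2656 and 1808. The de novo enzyme genes Dnmt3b and Dnmt3a were at 497 ± 56.9 and 110 ± 4.48. Dnmt3l, their cofactor in fetal germ cells, was not above background at 21.2, 6.3 and 3.6, and neither was Tet1 (56.4 ± 15.7), Tet2 (38.8 ± 16.9) or Tet3 (11.2 ± 3.65), which oxidise methylcytosine.

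Ret and Gfra1, which together receive GDNF, and 3 of the 4 FGF receptor kinases were above background. Ret, the signalling receptor of GDNF, was at 639.0, 641.6 and 696.6, with its second probe set at 629. Of the co-receptors of other ligands of the family, Gfra4 (126 ± 20.02) and Gfra2 (119.4, 99.9 and 106.6) were in the low band and Gfra3 (92.3, 97.7 and 56.1) was not above background (limma adjusted p = 0.214). Gfra1 was above these 3 on every array. Fgfr1 was the brightest of the 4 FGF receptor kinases at 534.6, 419.2 and 445.8. Fgfr2 was at 149 ± 24.2, Fgfr3 at 84.9, 112.8 and 84.8 (limma adjusted p = 0.0254), and Fgfr4 at 68.4, 95.8 and 114.2 missed the threshold (limma adjusted p = 0.0529). Fgfr3 fell under the line with either higher line and with the median probe set, and Fgfr2 with the median probe set. The 3 arrays of Fgfr1 lay above those of the other 3 kinases. Fgfrl1, a member without a kinase, was at 642 ± 80.2.

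Of the other growth factor and cytokine receptors, Sdc4, a heparan sulfate proteoglycan and co-receptor, was brightest at 4301 ± 586. Igf1r was at 1107, 1204 and 1401, Igf2r at 527 ± 127 and the chemokine receptor gene Cxcr4 at 393 ± 42.3, whereas Insr was not above background (77.2 ± 25.01). In this list of 30 genes 21 were called (70.0%, against 48.9% of all genes), and Met and Tek were among the dimmest. With a line from genes of other tissues 11 of the 30 were called, beside 6376 of all 18193 genes. With the median probe set 13 were called, beside 6978, and both shares lay nearer to that of all genes. Of 29 WNT, BMP, TGF-beta and NOTCH receptors 19 were called (65.5%, against 48.9% of all genes) and none was in the high band, which held 4.89% of all genes. Bmpr1a (681 ± 22.7), Tgfbr3 (498 ± 115) and Notch2 (460 ± 165) led. Bmpr1b, at 10.7 ± 10.1, was the dimmest. Of 32 nuclear hormone receptors 16 were called, a share near the 48.9% of all genes, with the clock repressor gene Nr1d2 (795 ± 73.4) and Nr2f6 (565 ± 34.2) the brightest. The retinoic acid receptor gene Rarg was in the low band at 171.6, 151.6 and 88.5, Rara was not above background (41.8 ± 25.6), and the estrogen receptor gene Esr1 was at 7.4, 23.0 and 74.9.

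Of 30 ligand genes 13 were called (43.3%, against 48.9% of all genes). The transcript of the growth factor added to the medium, Gdnf, was at 6.8, 7.4 and 6.8, and that of bFGF, Fgf2, at 2.7, 4.9 and 13.6, on 1 probe set each. Igf2 was the brightest at 1547, 1696 and 1638, on 1 of 2 probe sets. Jag1, a NOTCH ligand, was at 541, 1214 and 803 on 1 of 3 probe sets, with the next at 54.9, and Nrtn, a relative of GDNF, at 657.6, 680.7 and 633.4. Cxcl12, the ligand of CXCR4, was at 456 ± 54.3, Csf1 at 274 ± 23.5 and Fgf9 at 272 ± 24.5.

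**Figure D4:**
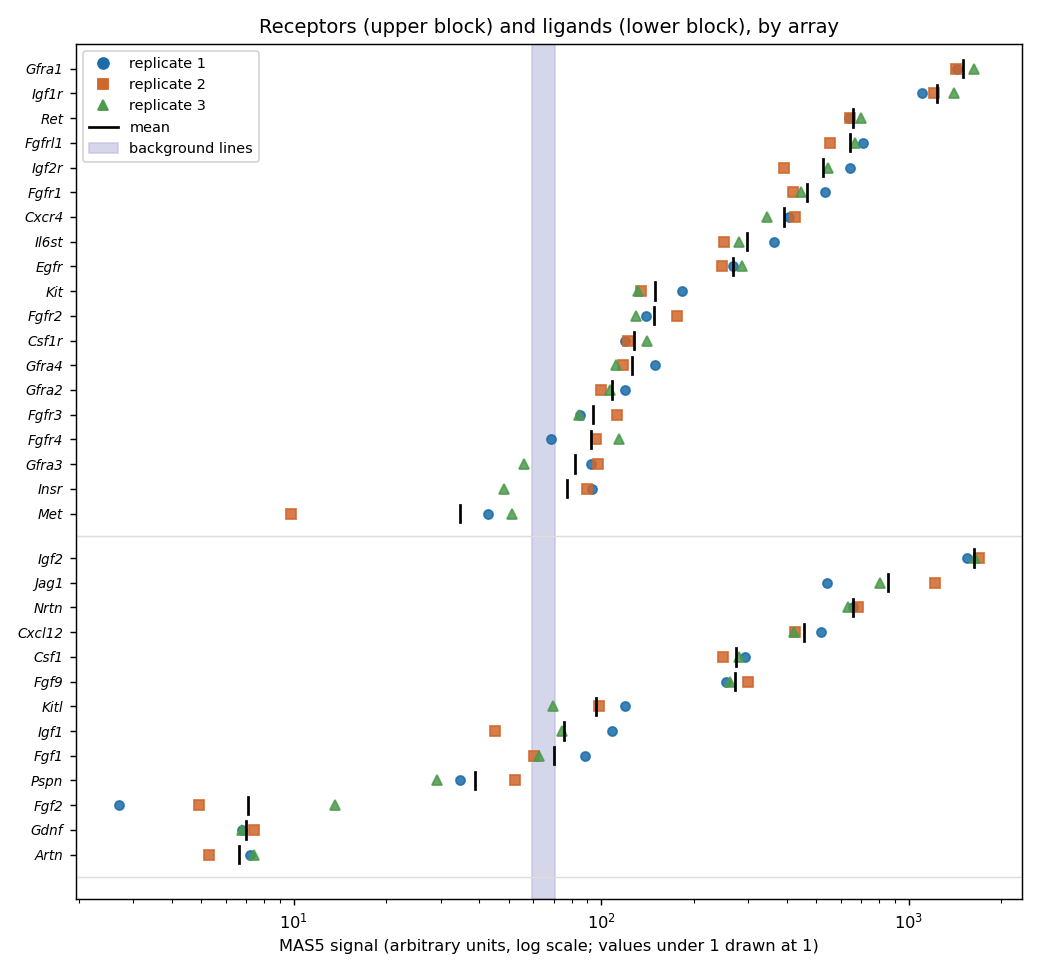
MAS5 signal (horizontal axis, arbitrary units, log scale) of receptor genes (upper block) and ligand genes (lower block) on replicates 1, 2 and 3, with the mean as a black bar and the background lines as a stripe. Gfra1 (mean 1496) and Ret (659) lie well right of the stripe, and Gdnf, at 7.0, lies left of it.

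Most genes known to answer ERK signalling were above background. Of 27, 22 were called (81.5%, against 48.9% of all genes). The moderate band, with 19.6% of all genes, held 15 of the 27. Egr1, an immediate-early factor, was at 2314, 2340 and 2715, Jund at 2564 ± 889 and Egr2 at 1007 ± 116. The ERK phosphatase gene Dusp6 was at 1576, 712 and 1080, and the feedback gene Spry2 at 926 ± 284. Like Etv5, Dusp6 was highest on replicate 1 and lowest on replicate 2. Fos was at 699 ± 49.1, while Fosb (31.6 ± 3.76), Atf3 (76.5 ± 15.1) and Maff (19.2 ± 11.5) were not above background. Surface molecules other than those above included Cd164 (2666 ± 155), Bsg (2042 ± 366) and the tetraspanin genes Cd9 (1188 ± 54.4) and Cd81 (1131 ± 89.0), and the claudin gene Cldn7 was at 29.2 ± 12.4.

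Markers of other cell types showed which somatic transcripts were present. Fewer cells of a type and less RNA per cell cannot be told apart in such bulk samples. Fibroblast genes stood out, with 22 of 25 called (88.0% against 48.9% of all genes) and a median of 258. Fibronectin, Fn1, was at 2464, 1802 and 2359, the collagen gene Col3a1 at 1931, 1280 and 1597, S100a4 at 1414 ± 312, Timp1 at 720 ± 136 and Col6a1 at 533 ± 126. Col1a1 was uneven at 676, 191 and 484. Dcn, a proteoglycan of connective tissue, was at 325.6 ± 23.4. Pdgfrb, Lum and Tagln were not called. The summed signal of the list was 12412, 10602 and 11387 on replicates 1, 2 and 3. Other cells, germ cells among them, transcribe some of these genes, and their source was not tested.

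Of 15 mast cell genes 8 were called (53.3%, against 48.9% of all genes). With a line from genes of other tissues 3 were called, beside 6376 of all 18193 genes. With the median probe set 5 were called, beside 6978, and both shares were smaller than that of all genes. Cpa3, the mast cell carboxypeptidase, was at 615, 568 and 474, the protease genes Mcpt4 and Cma1 at 379, 393 and 238 and at 320, 301 and 345. Tpsb2 was at 162 ± 57.3 and Gata2 at 156 ± 22.8. Fcer1a, the IgE receptor subunit, was low at 99.8 ± 15.8, and Hdc, which makes histamine, was not above background at 6.20 ± 2.13, nor was Ms4a2 or Mcpt8. The summed signal of the list was 2301, 2108 and 1808.

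Defining genes of Sertoli cells were at background. Sox9 (49.6 ± 17.4), Wt1 (17.7 ± 4.04), Amh (8.80 ± 1.65), Fshr (40.4 ± 17.1) and Gata4 (56.8 ± 16.03) were not called. In this list 8 of 21 were called (38.1%, against 48.9% of all genes). With the line at the 99th percentile 3 were called, beside 7226 of all 18193 genes. With a line from genes of other tissues 2 were called, beside 6376. Among the 8 were Tjp1 (3196 ± 537), a tight junction gene of many cells, Dmrt1, which germ cells also transcribe, and Clu at 110, 206 and 145. The list summed to 5263, 6307 and 6198. In Leydig and peritubular cells 2 of 12 were called (16.7%, against 48.9% of all genes), Scarb1 (347 ± 19.8) and Acta2 (258 ± 43.2). This list summed to 1028, 942 and 954. The steroidogenic genes Cyp11a1, Hsd3b1 and Cyp17a1 were not above background, and Star, at 157.0, 70.5 and 67.5, missed the threshold (limma adjusted p = 0.0603).

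Blood and vessel markers were at or near background, with a smaller share called in each list than the 48.9% of all genes. Of 14 endothelial genes 3 were called (21.4%), Egfl7 (207 ± 23.0), Kdr (148 ± 29.5) and Flt1 (112 ± 27.6). Cdh5, Pecam1, Tie1 and Vwf were not, and the list summed to 682, 828 and 765. Of 17 macrophage genes Csf1r (119.2, 121.7 and 140.7) and Mrc1 (94.1 ± 12.2) were called (11.8%). C1qa, C1qc and Aif1 were under a signal of 10 in the mean, and the list sums were 654, 782 and 671. Without replicate 2, or without replicate 3, 1 macrophage gene was called. Of 7 erythroid genes only Epor (105 ± 23.0) was called in limma (14.3%), with sums of 226, 247 and 254, and none was without replicate 3. Among 37 genes of liver, muscle, brain, pancreas and other tissues 4 were called (10.8%, against 48.9% of all genes). The exception in size was Afp, the alpha-fetoprotein gene of fetal liver and yolk sac, at 705, 1084 and 914, with 3 of its 5 probe sets called and the dimmest at 3.47. Pomc (136 ± 39.0), Tnni3 (111 ± 13.9) and Ckm (103 ± 37.0) were low, while Alb was at 31.7 ± 8.10.

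**Figure D5:**
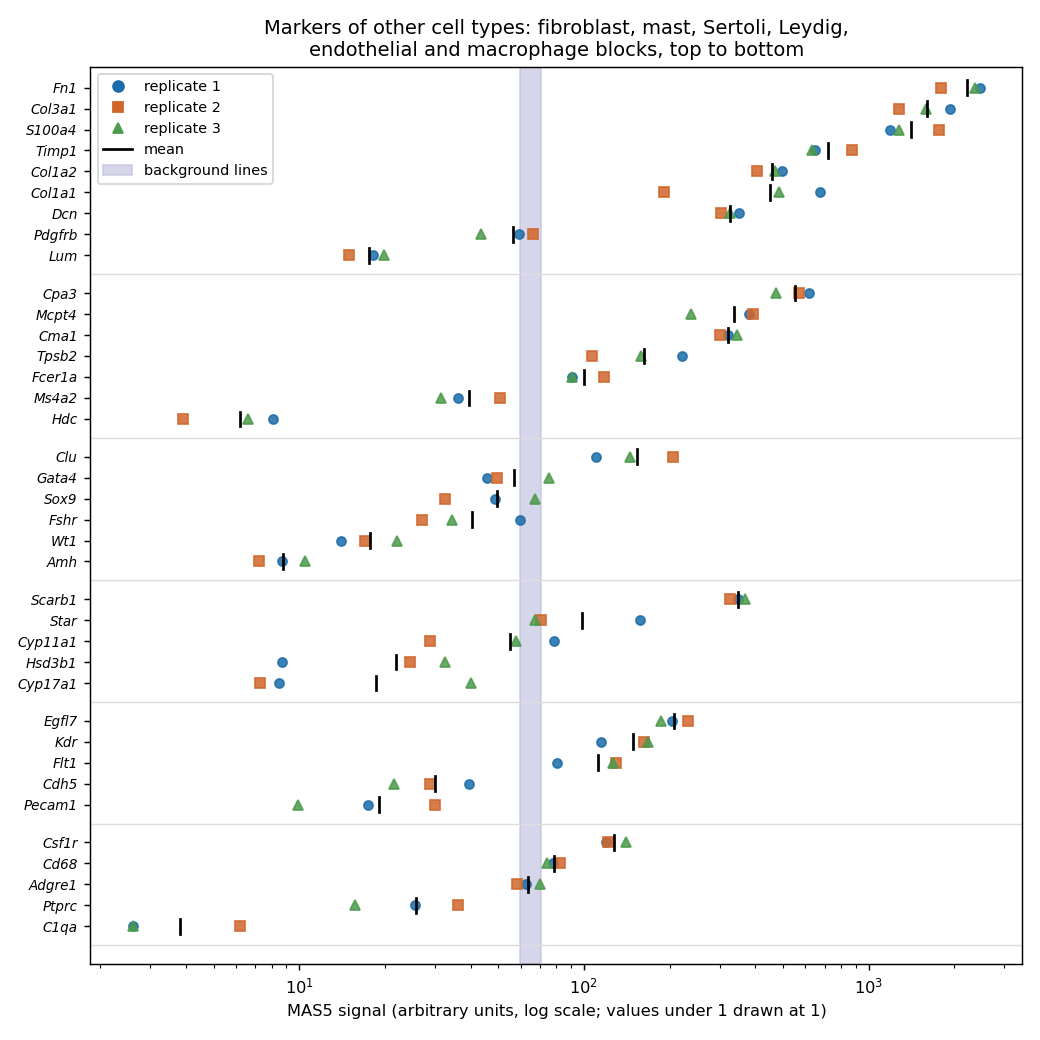
MAS5 signal (horizontal axis, arbitrary units, log scale) of marker genes of fibroblasts, mast cells, Sertoli cells, Leydig cells, endothelial cells and macrophages (blocks from top to bottom) on replicates 1, 2 and 3, with means as black bars and the background lines as a stripe. Fibroblast genes reach 2208 (Fn1) and mast cell genes 552 (Cpa3), whereas Sox9, Wt1 and Amh lie within or left of the stripe.

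The spread between arrays changed along the ranking. The median coefficient of variation was 19.7% over the 100 brightest genes, 12.4% over the 7058 genes with a mean signal above 150 and 32.9% over the 9293 genes not above background. Replicate 1 was the lowest array for 95 of the 100 brightest genes and replicate 2 the highest for 86. The summed signal of ribosomal protein genes was 248875, 405730 and 323673 on replicates 1, 2 and 3, and that of oxidative phosphorylation genes 142114, 237816 and 175271. The 99th percentile of signal over all probe sets moved the same way, at 2940.5, 3915.9 and 3275.6. Undifferentiated spermatogonia genes had sums of 24008, 21519 and 23250. Whether the arrays differ in RNA, labelling or scale was not tested.

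Few single genes were far apart. Of the 7058, 240 differed over 2-fold between the highest and lowest array and 22 over 3-fold, and replicate 2 was the array apart in 20 of these 22. The widest was Rpf2, a ribosome assembly gene, at 166.8, 1147 and 502.9. Hspa4, a heat shock protein gene, was at 1871, 5433 and 1004, and Rpl27a at 661, 3059 and 1275. Slc39a1, a zinc transporter gene, was at 229.5, 1054 and 370.6, and Tmem181a, Lsm14b and Sema4b were likewise highest on replicate 2. Srr, the serine racemase gene, was at 279.3, 85.8 and 394.6, Zmym3 at 236.9, 52.1 and 167.7 and Gpat4 at 323.5, 86.1 and 182.7, each lowest on replicate 2.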

How the data were processed

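The 3 replicates of maintained cultures were measured on 1 single-colour Affymetrix array each. Per the labels and the submitters' processing notes the authors computed MAS5 signal, and the deposited values are an intensity on a linear scale. Neither the software version nor a scaling target is given in the sources used here. The middle 96% of probe sets averaged 150.0 on each array. Of 45101 probe sets, 34958 had 1 gene symbol in the platform annotation, 932 several and 9211 none. The 64 control probe sets were left out, which kept 34945 probe sets. Gene and promoter tables are RefSeq's, and 0 symbols changed.

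Log2 of signal plus 16, minus the same transform of the array's background line, was tested against 0 with limma 3.58.1 in R 4.3.3 (intercept only, eBayes with trend, one-sided, 2 residual and 15.89 prior degrees of freedom), with Benjamini-Hochberg adjustment over 18193 genes. Testing the brightest of several probe sets favours a call. A self-test on simulated data drew them from the same fitted model. It therefore cannot check the background line or the choice of the brightest probe set. Lists, bands, ranks and promoters have no test of their own. With 3 arrays, their number sets the precision. The members and lists were chosen with earlier results of these data known. Named genes are the 25 brightest, the brightest called and some uncalled members of each list, the GDNF and FGF receptors, sex-linked checks and the 10 widest spreads above a signal of 150. Further members, Uba1y, Uba1, Zfy2, Tspy-ps, Sry and the sensory receptors were named after their values were seen. Alternatives changed the line, constant, variance model, probe set rule, normalization, arrays and filter.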

Additional observations from a re-analysis of the deposited data

How the results depend on the processing

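The count of 8900 genes above background lay between 6376 and 9165 under the 13 alternatives. It was 7226 with the line at the 99th percentile of sensory receptor probe sets, 6376 with a line from genes of other tissues, 6978 with the median probe set per gene, 8502 of 17903 genes without probe sets marked as shared or cross-hybridising, and 9165 of 10915 once the dimmest 40% of genes were left out. With 1 array left out in turn it lay between 8455 and 8857. Shifting all arrays to 1 median moves the line with them and gives 8900 by construction. Of the 100 brightest genes 74 stayed so with the median probe set, 74 without shared or cross-hybridising probe sets, and between 95 and 98 with 1 array left out. No paired analysis was possible because all values come from 1 group and no groups were compared.

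Short lists near the line moved most. Over all 18193 genes, 6376 were called with the line from other tissues. With the 99th percentile 7226 were called, and with the median probe set 6978. With the line from other tissues the called members were 4 of the differentiating list, 6 for pluripotency, 11 of the GDNF, FGF and cytokine receptors, 2 for Sertoli cells, 1 for endothelial cells, 0 for macrophages, 3 for mast cells and 0 for erythroid cells. With the 99th percentile they were 3 for Sertoli cells, 0 for macrophages, 0 for erythroid cells and 1 for other tissues. With the median probe set they were 13 of those receptors, 5 for Sertoli cells, 1 for Leydig and peritubular cells, 5 for mast cells and 2 for other tissues. Leydig and peritubular cells had 1 without shared or cross-hybridising probe sets. With 1 array left out, macrophages had between 1 and 2 (1 without replicate 2 or replicate 3) and erythroid cells between 0 and 1 (0 without replicate 3).

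Of 292 named genes 244 stayed on their side of the threshold throughout, 46 lost the call in at least 1 alternative and 2 gained it in at least 1. Log2 signal over the line turned negative under some. With the 99th percentile these were Pou5f1 (-0.184), Fgfr3 (-0.148), Mrc1 (-0.145), Sohlh1 (-0.143), Kdm5d (-0.136), Piwil4 (-0.126), Acr (-0.117), Ckm (-0.08), Fcer1a (-0.075), Vmn1r44 (-0.03) and Epor (-0.023). With the line from other tissues they were Pou5f1 (-0.367), Fgfr3 (-0.332), Mrc1 (-0.329), Sohlh1 (-0.327), Kdm5d (-0.32), Piwil4 (-0.309), Acr (-0.301), Ckm (-0.264), Fcer1a (-0.259), Vmn1r44 (-0.214), Epor (-0.207), Gfra2 (-0.147), Flt1 (-0.129), Dnmt3a (-0.128), Tnni3 (-0.123), Hspa1a (-0.115) and Vmn1r148 (-0.045). With the median probe set they were Acta2 (-1.333), Mif (-0.803), Pomc (-0.572), Clu (-0.462), Piwil4 (-0.363), Gfra2 (-0.343), Sema4b (-0.221), Jag1 (-0.219), Kdm5d (-0.187), Fgfr3 (-0.116), Uty (-0.075), Rarg (-0.072) and Fgfr2 (-0.005). Without shared or cross-hybridising probe sets they were Tmsb10 (-1.362), Acta2 (-1.333), Piwil4 (-1.159), Clu (-0.674), Rpl41 (-0.387) and Fgfr2 (-0.005). With the 99th percentile the line is higher by construction, and with genes of other tissues it was higher through their own signals. In the others a dimmer probe set stands for the gene.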
